A study of Mus musculus with 4 samples.

Results

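The genes described here are 38 mouse genes of fatty acid oxidation and of the response to the nuclear receptor PPAR-alpha, measured in kidney after an injection of vancomycin or saline. They were chosen by gene symbol from a list of mitochondrial, peroxisomal and microsomal enzymes of fatty acid breakdown and of other known PPAR-alpha targets, and all 38 were found among the 37074 gene names on the array. Their products fall into 19 mitochondrial, 8 peroxisomal and 2 microsomal proteins and 9 located elsewhere. Of the 38, 37 had a probe well above background on at least 1 of the 4 arrays and 36 on all 4 arrays, against 24640 and 20761 of all gene names. The exceptions were Fgf21, which was not well above background on any array, and Cyp4a14, which was dim on 1 array.

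Mice of the outbred ICR strain received vancomycin at zeitgeber time 2 (ZT2, counted in hours from lights on), vancomycin at ZT14, saline at ZT2 or saline at ZT14, and the kidney was taken 1 day later. Total kidney RNA of each of the 4 groups was hybridized to 1 one-colour Agilent array. Dose, sex, age and the number of mice behind each sample are not given in the sources used here. No group had a second array, so a difference at 1 injection time has no replicate error and no test.

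Fatty acids are broken down by beta-oxidation, which removes acetyl units from an acyl-CoA in a repeated cycle of dehydrogenation, hydration, dehydrogenation and thiolysis. Mitochondria run this cycle for energy after the carnitine shuttle brings the acyl group in, peroxisomes shorten very long and branched chains, and microsomal cytochromes P450 of the Cyp4a family hydroxylate the far (omega) end of the chain. PPAR-alpha is activated by fatty acids and, with its partner RXR, binds DNA near many of these genes. The proximal tubule of the kidney takes most of its energy from fatty acid oxidation.

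The label of the tissue was checked against 22 proximal tubule markers, among them the phosphate transporter Slc34a1. All 22 were well above background on all 4 arrays. Their summed signal was 1477740 with vancomycin and 1396980 with saline at ZT2, and 2030320 with vancomycin and 1986330 with saline at ZT14. Adipocyte and adrenal markers varied much more between arrays and are given below. Of all 59305 spots per array, 60.6 to 64.7% were well above background and none was saturated. Each injection time occupied a slide of its own, and within both slides vancomycin and saline lay at different positions, so slide and injection time, and position and treatment, cannot be told apart.

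Signals are given in intensity units after every array was scaled to the same 75th percentile (587), and differences are vancomycin minus saline on the log2 scale, where 1 is a doubling. The scanner software's own error model sets a standard error of about 0.204 on such a difference for the brighter members, and 0.541 at ZT2 and 0.289 at ZT14 for the dim Cyp4a14. For the brighter members this error follows from a multiplicative error of 0.1 that was the same on every array. A limit of 2 scanner errors is therefore nearly the same cut in size for each of them. The error model stands for the measurement of a spot and was not estimated from repeat arrays. It does not cover variation between mice. A test of vancomycin over both injection times was made with limma (additive in treatment and injection time, Benjamini-Hochberg adjustment over 24640 genes). Its only residual degree of freedom is the disagreement of the difference between the 2 times, which limma combines with a spread pooled over all genes (prior SD 0.168, 1.86 degrees of freedom), so its p-values do not measure variation between mice given the same treatment at the same time.

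Vancomycin kidneys had higher signals than saline kidneys at both injection times for 24 of the 36 members measured on all arrays (66.7%), where 29.9% of all genes measured did so. Lower signals at both times were seen in 5 members (13.9%), against 27.3% of all genes. The remaining 7 members differed in opposite directions at the 2 times. Most of the differences were small, with a median over the members of 0.23 at ZT2 and 0.16 at ZT14, against 0.00 and 0.01 over all genes measured. The larger ones belonged to the omega-hydroxylase Cyp4a10, the lipoprotein lipase inhibitor Angptl4, the cytosolic thioesterase Acot1, the pyruvate dehydrogenase kinase Pdk4 and, at ZT2, the acyl-CoA synthetase Acsl1 and the thiolase Acaa2.

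In limma's fit no gene passed an adjusted p of 0.05 (0% of genes called), and the lowest adjusted p, 0.52, was also the lowest among the members. At an unadjusted p under 0.05 stood 2107 genes, 790 higher and 1317 lower with vancomycin. Among them were 7 members, Acot1, Acot3, Angptl4, Cyp4a10, Cyp4a14, Eci1 and Pdk4, each higher with vancomycin. That count of members was 1 without the injection-time term, 12 with normexp background correction and 15 when limma's prior followed the signal level and was made robust. None of the differences described below therefore passed a test across the genes, and they are given as sizes. The samples are whole kidney, in which fewer cells of a type and less RNA per cell cannot be told apart.

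By size, 7 members were at least 1.5-fold higher with vancomycin at ZT2 (Acaa2, Acot1, Acot2, Acsl1, Angptl4, Cyp4a10 and Eci1), with 5.54% of all genes, and 1 was lower (Cd36), with 7.9% of all genes. At ZT14, 4 members were higher by that size (Acot1, Angptl4, Cyp4a10 and Pdk4), with 4.46% of all genes, and 0 were lower, with 5.81%. Cyp4a10, Angptl4 and Acot1 were the 3 members at least 1.5-fold higher at both times, beside 1.02% of all genes, and no member was at least 1.5-fold lower at both, where 2.3% of all genes were. A difference of 2-fold or more at ZT2 was reached by 1 member upward, Acsl1, with 1.33% of all genes, and by 0 members downward, with 3.01% of all genes. At ZT14 it was reached by 3 members upward, Angptl4, Cyp4a10 and Pdk4, with 1.09% of all genes, and by 0 downward, with 2.22%. Counted by more than 2 scanner errors at both times, 6 members were higher (Acot1, Acot3, Angptl4, Cyp4a10, Eci1 and Pdk4), with 1.99% of all genes, and 0 were lower, with 3.61%.

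**Figure D1:**
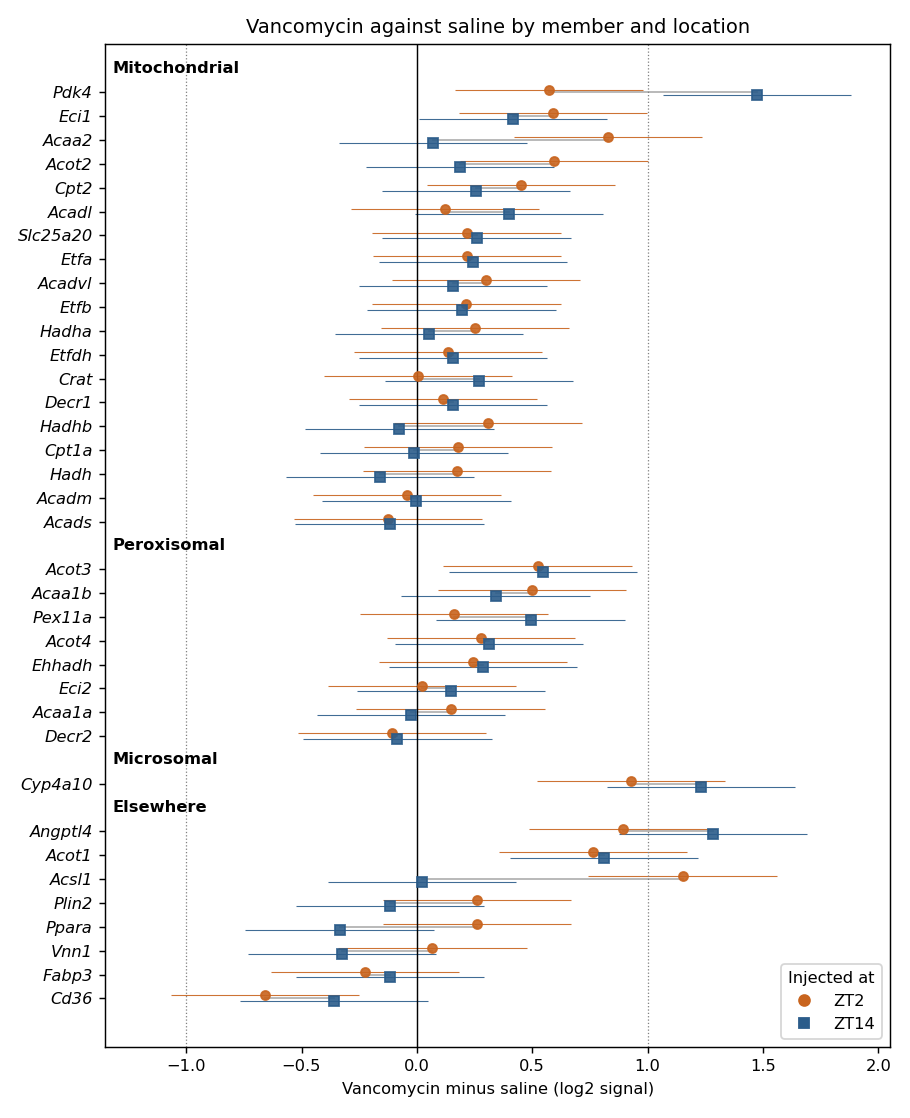
The log2 difference between vancomycin and saline kidneys is plotted for the 36 members measured on all 4 arrays, by location, with circles for injection at ZT2, squares for ZT14 and horizontal bars of 2 scanner standard errors. Most points lie right of 0, and Cyp4a10, Angptl4, Acot1, Pdk4, Acot3 and Eci1 have bars that stay right of 0 at both times. The bars come from the scanner's error model and not from repeat arrays.

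The microsomal members, Cyp4a10 and Cyp4a14, are neighbouring genes on chromosome 4 whose products start omega-oxidation of fatty acids, and both are textbook PPAR-alpha targets in rodents. Cyp4a10 has 3 probes on the array and Cyp4a14 has 1, and because Cyp4a genes are near copies of each other the probe sequences decide what each signal can be assigned to. They are shown here with a probe of the neighbouring paralog Cyp4a31. The capitals mark the 26-base stretch in which a Cyp4a10 probe and the Cyp4a31 probe overlap when laid side by side without gaps, with 22 of the 26 bases the same (84.6%).
Cyp4a10 A_52_P257774: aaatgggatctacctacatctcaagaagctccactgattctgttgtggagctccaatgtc
Cyp4a10 A_52_P6588: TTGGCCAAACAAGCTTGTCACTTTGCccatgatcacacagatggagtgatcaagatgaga
Cyp4a10 A_55_P2092030: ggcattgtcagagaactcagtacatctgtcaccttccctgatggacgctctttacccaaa
Cyp4a14 A_66_P118338: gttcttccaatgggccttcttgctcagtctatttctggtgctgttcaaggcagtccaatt
Cyp4a31 A_55_P2024033: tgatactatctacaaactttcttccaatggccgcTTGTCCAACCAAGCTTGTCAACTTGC

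In the mm9 coordinates of the files the Cyp4a10 probes lie on the plus strand at chr4:115205268-115205756, chr4:115197445-115197926 and chr4:115198463-115198522, in the order printed. The first and second span 489 and 482 genomic bases, more than a probe's length, because they cross an intron. The Cyp4a14 probe lies on the minus strand at chr4:115168609-115168668 and the Cyp4a31 probe on the plus strand at chr4:115242872-115242931. The probes lie at different positions of their transcripts, and only the pair with capitals, starting at bases 782 and 736, comes from corresponding stretches. Binding of paralog RNA to the probes was not tested.

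Cyp4a10, read from its brightest probe, had a signal of 5489.6 in the vancomycin kidney and 2883 in the saline kidney at ZT2. At ZT14 it had 8594 with vancomycin and 3661 with saline. Both vancomycin arrays were above both saline arrays, with 1.90-fold the saline signal at ZT2 and 2.35-fold at ZT14. Limma's effect over both times was 1.08 ± 0.16 (SE, log2), with an unadjusted p of 0.00799 and an adjusted p of 0.52. Probe A_52_P6588 gave differences of 0.77 at ZT2 and 1.07 at ZT14, and A_55_P2092030 gave 0.20 and 0.72. All 3 Cyp4a10 probes were higher with vancomycin at both times, but that of A_55_P2092030 at ZT2 was within the scanner error.

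Cyp4a14 was dim on every array, with signals of 17.9 with vancomycin and 7.84 with saline at ZT2, and 41.3 with vancomycin and 17.2 with saline at ZT14. Only the saline array at ZT2 was not well above background. Set against the lowest signal that counted as well above background on that array, the vancomycin signal at ZT2 gives a lower bound of 1.60-fold (0.68). That bound takes the vancomycin signal as exact, and 0.68 is less than 2 scanner errors of 0.541. At ZT14 the vancomycin signal was 2.41-fold the saline signal. Limma's effect on the measured values was 1.23 ± 0.14 (adjusted p 0.52), but 0.43 with normexp background correction and 0.65 with a pseudocount of 16, so the size for Cyp4a14 rests on the background.

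The genes around this pair did not all lie on the same side. Cyp4a31 had 25313 with vancomycin and 15997 with saline at ZT2, and 28155 with vancomycin and 17395 with saline at ZT14, so it was higher with vancomycin at both times (0.66 and 0.69), and its other probe, the one printed, gave 0.64 and 1.11. Cyp4a12a and Cyp4a12b, the male-biased omega-hydroxylases of mouse kidney, were lower with vancomycin. Cyp4a12b had 51774 with vancomycin and 86767 with saline at ZT2, and 37407 with vancomycin and 71878 with saline at ZT14, which are differences of −0.74 and −0.94, and Cyp4a12a differed by −0.66 and −0.77. Cyp4a30b, a dim member of the family, had 16.4 with vancomycin and 24.3 with saline at ZT2, and 22.0 with vancomycin and 53.3 with saline at ZT14 (−0.57 and −1.27). In limma's fit the effects of Cyp4a31, Cyp4a12a and Cyp4a12b, 0.68 ± 0.14, −0.72 ± 0.14 and −0.84 ± 0.15, had an adjusted p of 0.52 each, and that of Cyp4a30b, −0.92 ± 0.25, one of 0.56.

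**Figure D2:**
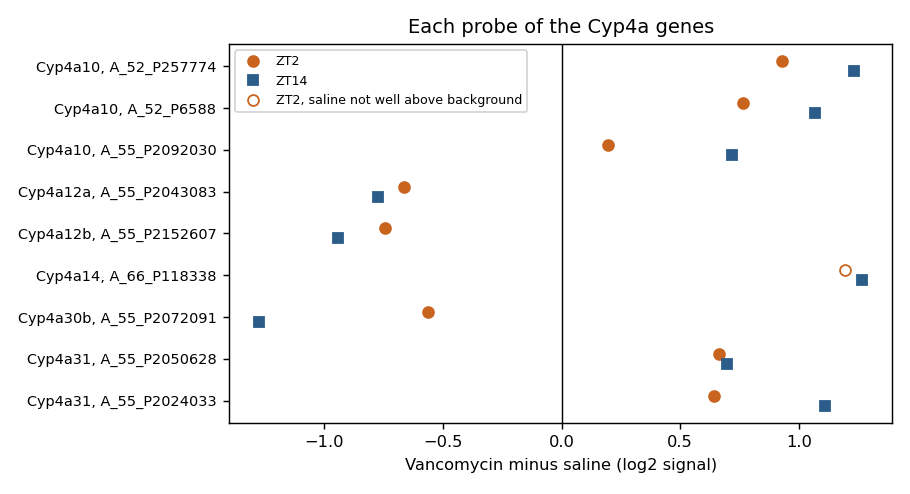
Each Cyp4a probe well above background on at least 1 array is plotted by its log2 difference between vancomycin and saline, with circles for ZT2, squares for ZT14 and an open circle where the saline array at ZT2 was not well above background. The probes of Cyp4a10, Cyp4a14 and Cyp4a31 lie right of 0 and those of Cyp4a12a, Cyp4a12b and Cyp4a30b lie left of 0 at both times.

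Of the 18 other microsomal genes listed, 14 were measured on all arrays, of which 7 had higher and 4 had lower signals at both times after vancomycin, with medians of 0.17 and 0.10. The shares of all genes were 29.9% higher and 27.3% lower. Cyp4f14, a fatty acid and leukotriene omega-hydroxylase, was also higher with vancomycin, at 43.1 with vancomycin and 27.4 with saline at ZT2 and 109.6 with vancomycin and 44.3 with saline at ZT14.

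Acyl-CoA thioesterases cut an acyl-CoA to a free fatty acid and CoA, and 4 close paralogs on mouse chromosome 12 place this step in different compartments: Acot1 in the cytosol, Acot2 in mitochondria, and Acot3 and Acot4 in peroxisomes. All 4 were higher with vancomycin at both times, with medians of 0.56 at ZT2 and 0.43 at ZT14. The 250 bases upstream of the starts of Acot1 and Acot4, the members of the cluster with the larger and a smaller difference, are printed because both were higher together at both times. They are from RefSeq on GRCm38.p6, on the plus strand, at chr12:84009252-84009501 and chr12:84038129-84038378. Capitals mark a match to AGGTCA, the hexamer that nuclear receptors of this class bind, read on the other strand.
Acot1 upstream: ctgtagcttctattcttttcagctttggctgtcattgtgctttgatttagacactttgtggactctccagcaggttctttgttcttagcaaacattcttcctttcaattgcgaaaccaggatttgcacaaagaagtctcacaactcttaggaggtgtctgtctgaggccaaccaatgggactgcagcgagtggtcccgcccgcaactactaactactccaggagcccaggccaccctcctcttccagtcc
Acot4 upstream: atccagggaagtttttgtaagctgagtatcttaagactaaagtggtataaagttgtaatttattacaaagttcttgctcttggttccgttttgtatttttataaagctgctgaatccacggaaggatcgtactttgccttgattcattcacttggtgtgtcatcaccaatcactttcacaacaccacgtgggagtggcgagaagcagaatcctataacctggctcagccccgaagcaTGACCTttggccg

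The hexamer AGGTCA, searched on both strands, was found in 6 of the 33 upstream windows that matched 31 members (those of Acadm, Acadvl, Acot4, Cd36, Cpt1a and Plin2) and in 14.02% of all 32851 windows of this length. Its direct repeat with a spacer of 1 base, AGGTCANAGGTCA, the full PPAR-RXR element, was in 0 of the 33 windows and in 0.0335% of all windows. A match is a description of these letters, and elements outside the windows, or with other letters, were not searched.

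Acot1 had 14843 with vancomycin and 8742 with saline at ZT2, and 11628 with vancomycin and 6623 with saline at ZT14. Both vancomycin arrays were above both saline arrays, by 1.70-fold and 1.76-fold within each time, which were nearly the same size. Limma's effect was 0.79 ± 0.14, with an unadjusted p of 0.0117 and an adjusted p of 0.52. Acot3 had 847 with vancomycin and 590 with saline at ZT2, and 1473 with vancomycin and 1009 with saline at ZT14 (differences of 0.52 and 0.55). Its dimmer probe gave larger differences of 1.24 and 1.41, so the size of the Acot3 difference rests on the probe.

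Acot2 had 1600.0 with vancomycin and 1061 with saline at ZT2 (0.59), and 1712 with vancomycin and 1503 with saline at ZT14 (0.19). Acot4 differed by 0.28 and 0.31, and its dimmer probe by −0.08 and 0.40. Differences of Acot2 at ZT14 and of Acot4 at both times lay within 2 scanner errors. Thioesterases of the other lists went both ways: Acot5, another peroxisomal paralog (0.63 and 0.90), and Acot7, a long-chain thioesterase (0.63 and 0.65), were higher with vancomycin, and Acot9 (−1.42 and −0.29) and Acot11 (−0.36 and −0.31) were lower.

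**Figure D3:**
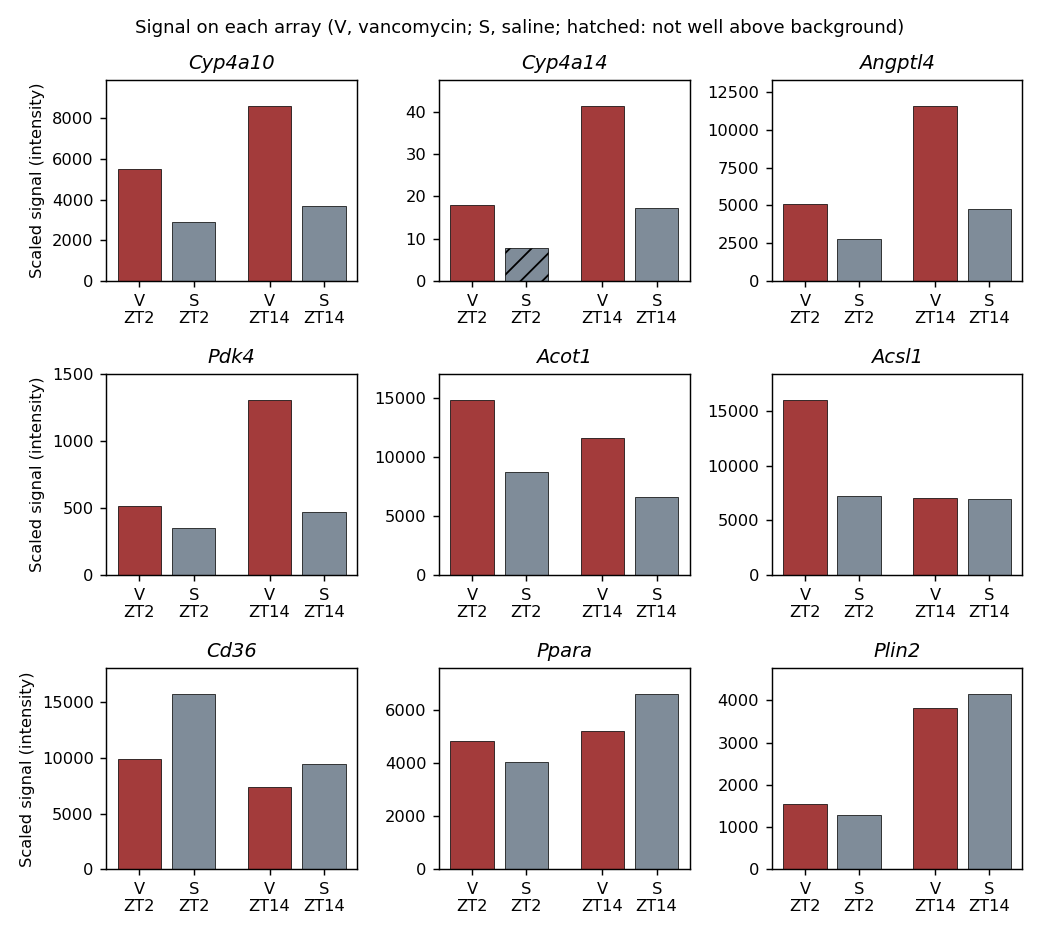
Scaled signals of 9 members are drawn as bars for each of the 4 arrays, vancomycin in red and saline in grey, from 0 on each panel's own axis, and the hatched Cyp4a14 bar was not well above background. Both vancomycin bars exceed their saline bars for Cyp4a10, Cyp4a14, Angptl4, Pdk4 and Acot1, Acsl1 differs at ZT2, and Cd36 is lower with vancomycin at both times.

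The 19 mitochondrial members were higher with vancomycin at both times in 14 cases and lower at both in 2, and 3 differed in sign between the times. Their median was 0.22 at ZT2 and 0.16 at ZT14. Of all genes measured, 29.9% were higher and 27.3% lower at both times. Among the carnitine shuttle genes Cpt1a, Cpt2, Slc25a20 and Crat, differences ran between 0.01 and 0.45 at ZT2 and between −0.01 and 0.27 at ZT14. The acyl-CoA dehydrogenases for very long, long, medium and short chains, Acadvl, Acadl, Acadm and Acads, ran from −0.13 to 0.30 at ZT2 and from −0.12 to 0.40 at ZT14, with Acadm and Acads lower at both times. The 3 genes that pass their electrons to the respiratory chain, Etfa, Etfb and Etfdh, were each higher at both times, by 0.14 to 0.22 at ZT2 and 0.16 to 0.24 at ZT14. Apart from that of Cpt2 at ZT2, all of these differences lay within 2 scanner errors. A dimmer Etfa probe gave −0.11 at ZT2 and 0.29 at ZT14, and another gave 0.08 and 0.07. The other probes of Etfb and Etfdh were higher at both times.

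Cpt2, the inner-membrane carnitine acyltransferase, had 20656 with vancomycin and 15099 with saline at ZT2, and 20906 with vancomycin and 17490.4 with saline at ZT14. Eci1, the isomerase that prepares unsaturated chains for the cycle, had 24322 with vancomycin and 16151 with saline at ZT2, and 25078 with vancomycin and 18805 with saline at ZT14. Acaa2, the mitochondrial thiolase, had 38554 with vancomycin and 21722 with saline at ZT2, and 28978 with vancomycin and 27603 with saline at ZT14. Eci1 exceeded 2 scanner errors at both times (0.59 and 0.42), whereas Acaa2 (0.83 and 0.07) and Cpt2 (0.45 and 0.26) did so at ZT2 and not at ZT14. For Cpt2 that pattern rests on the probe, as its dimmer probe gave 0.15 at ZT2 and 0.54 at ZT14. The trifunctional protein's subunits Hadha and Hadhb and the hydroxyacyl-CoA dehydrogenase Hadh were higher at ZT2, by 0.17 to 0.31, and between −0.16 and 0.05 at ZT14. The sign of Hadhb at ZT14 rests on the probe. Its brightest probe gave −0.08, and its dimmer probes were higher at both times (0.42 and 0.66, and 0.06 and 0.08). Decr1, the dienoyl-CoA reductase, differed by 0.11 and 0.16.

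Pdk4, which switches off pyruvate dehydrogenase and so spares glucose while fat is burned, was the mitochondrial member with the widest difference. It had 520 with vancomycin and 350 with saline at ZT2, and 1308 with vancomycin and 470 with saline at ZT14. The vancomycin array at ZT14 stood apart from the other 3, at 2.78-fold its saline partner, against 1.49-fold at ZT2. Limma's effect was 1.02 ± 0.30, with an unadjusted p of 0.045 and an adjusted p of 0.57. Whether the difference of Pdk4 depends on the injection time could not be tested with 1 array per group.

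The 24 other mitochondrial genes listed included 10 with higher and 7 with lower signals at both times, beside 29.9% and 27.3% of all genes. Their medians were 0.10 and 0.02. Cpt1c, the neuronal relative of Cpt1a, was lower with vancomycin (−0.57 and −0.32).

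The 8 peroxisomal members were higher at both times in 6 cases, with medians of 0.20 at ZT2 and 0.30 at ZT14 and a range between −0.11 and 0.55 over both times. On its brightest probe none reached 1.5-fold at either time. The dimmer Acot3 probe gave 1.24 and 1.41. The dimmer probes of Acot4 and Eci2, both counted as higher, were lower with vancomycin at ZT2 (−0.08 each). Higher at both times by any size were 29.9% of all genes. Ehhadh, the peroxisomal bifunctional enzyme, had 20962 with vancomycin and 17719 with saline at ZT2, and 15917 with vancomycin and 13057 with saline at ZT14, differences of 0.24 and 0.29. The paralogous thiolases differed by 0.50 and 0.34 for Acaa1b and by 0.15 and −0.03 for Acaa1a. The Acaa1b differences at ZT2 and those of Acot3 exceeded 2 scanner errors, and those of Ehhadh and Acaa1a did not.

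Pex11a, which promotes peroxisome division, had 11096 with vancomycin and 9918 with saline at ZT2, and 16420 with vancomycin and 11670.0 with saline at ZT14 (0.16 and 0.49). Its difference was within the scanner error at ZT2 and over 2 of them at ZT14. Decr2, the peroxisomal dienoyl-CoA reductase, was lower by little (−0.11 and −0.08), and Eci2, the peroxisomal isomerase, differed by 0.02 and 0.15.

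Among the 43 other peroxisomal genes listed, 42 were measured on all arrays. Of these, 18 had higher and 10 had lower signals at both times after vancomycin, beside 29.9% and 27.3% of all genes. Their medians were 0.02 and 0.09. This list also held Pmp22 (−0.32 and −0.11), the gene of peripheral myelin protein 22, which is not a peroxisomal protein. It is among the 10 counted as lower. Hao2, a peroxisomal hydroxyacid oxidase of kidney, differed most of the list. It had 18229 with vancomycin and 5310.1 with saline at ZT2, and 11227 with vancomycin and 4031 with saline at ZT14, 3.43-fold and 2.79-fold. Limma's effect for Hao2 was 1.63 ± 0.16 (adjusted p 0.52). Pecr, a trans-enoyl-CoA reductase (0.33 and 0.50), and Nudt7, a CoA diphosphatase (0.39 and 0.29), were also higher.

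**Figure D4:**
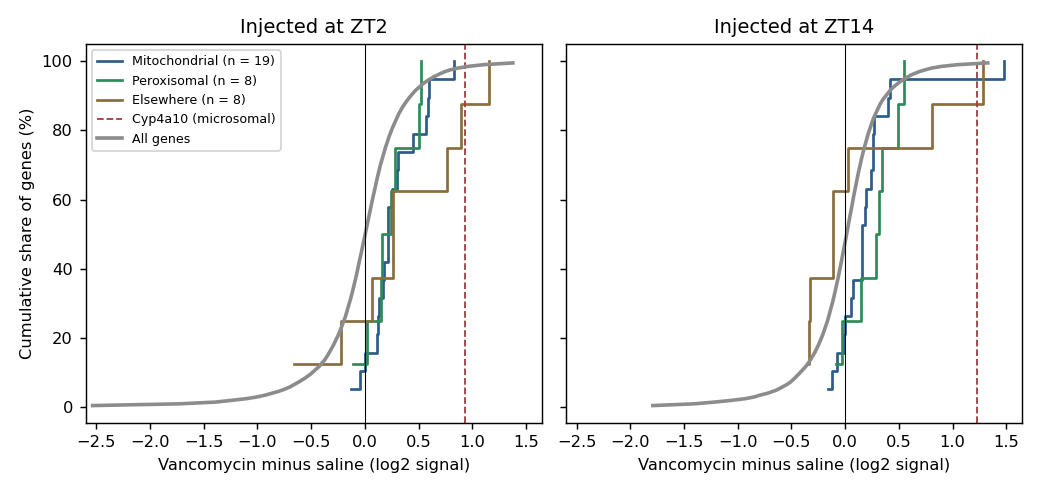
The cumulative share of genes (%) is plotted against the log2 difference between vancomycin and saline at ZT2 (left) and ZT14 (right) for 19 mitochondrial, 8 peroxisomal and 8 other members and for all genes measured on all arrays, with Cyp4a10 as a dashed line. The mitochondrial and peroxisomal curves cross 50% right of 0 at both times and overlap each other at ZT2.

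Set side by side, the microsomal pair had the highest median of the 4 locations at both times, and the other 3 changed order. Its median was 1.06 at ZT2 (0.80 with Cyp4a14 at its lower bound) and 1.25 at ZT14. Read from the brightest probes, both of its genes exceeded all 8 peroxisomal members at both times. That order rests on the probe. The dimmer probe of the peroxisomal Acot3 gave 1.24 and 1.41, above the brightest Cyp4a10 probe (0.93 and 1.23). Cyp4a10 probe A_55_P2092030 gave only 0.20 and 0.72. The mitochondrial and peroxisomal medians were 0.22 and 0.20 at ZT2 and 0.16 and 0.30 at ZT14, a difference that was not tested. The microsomal group has only 2 genes, and its relatives Cyp4a12a, Cyp4a12b and Cyp4a30b lay on the other side of 0, so its median describes Cyp4a10 and Cyp4a14 and not the microsomal enzymes as a class.

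The members located elsewhere were the least alike, with 3 higher at both times, 2 lower at both and 3 of opposite sign, and medians of 0.26 at ZT2 and −0.12 at ZT14. Ppara itself, the gene of the receptor, had 4819 with vancomycin and 4024 with saline at ZT2, and 5206 with vancomycin and 6568 with saline at ZT14. The vancomycin array was thus the higher one at ZT2 (0.26) and the lower one at ZT14 (−0.34), and a second probe did the same (0.47 and −0.44). Limma's effect over both times was −0.04 ± 0.22 (adjusted p 0.98). On its brightest probe Ppara differed by less than 2 scanner errors at both times. A relation of Ppara to the higher signals of Cyp4a10, Angptl4 and Acot1 was not tested.

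Angptl4, a secreted inhibitor of lipoprotein lipase, had 5109 with vancomycin and 2749 with saline at ZT2, and 11579 with vancomycin and 4758 with saline at ZT14. Within each time the vancomycin kidney was higher, by 1.86-fold and 2.43-fold, and the vancomycin array at ZT14 was the highest of the 4. Limma's effect was 1.09 ± 0.18, with an unadjusted p of 0.01 and an adjusted p of 0.52. Fgf21, the other secreted target, could not be measured, with signals of 2.04 to 3.99 that were not well above background on any array.

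Acsl1, which activates long-chain fatty acids to acyl-CoA, had 15977 with vancomycin and 7191 with saline at ZT2, and 7085 with vancomycin and 6971 with saline at ZT14. The vancomycin array at ZT2 alone was high, at 2.22-fold its saline partner, and the other 3 lay within a narrow range. A second Acsl1 probe showed the same picture (0.93 and −0.03), while the remaining probe was near background. Limma's effect over both times was 0.59 ± 0.36 (adjusted p 0.73).

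Cd36, the fatty acid uptake receptor, was lower with vancomycin and is named after its values were seen. It had 9913 with vancomycin and 15657 with saline at ZT2, and 7388 with vancomycin and 9473 with saline at ZT14, 0.63-fold and 0.78-fold. Limma's effect was −0.51 ± 0.16, with an unadjusted p of 0.0549 and an adjusted p of 0.59. Endothelial cells and macrophages also express Cd36, and most of their markers were lower with vancomycin too. Summed over 12 endothelial markers the signal was 14437 with vancomycin and 18548 with saline at ZT2, and 18482 with vancomycin and 22948 with saline at ZT14, and 11 of the 12 were lower at both times. Summed over 12 macrophage markers it was 25492 with vancomycin and 27743 with saline at ZT2, and 30958 with vancomycin and 34090 with saline at ZT14, and 9 of the 11 measured on all arrays were lower at both times. The brightest macrophage marker, Itgam, was higher with vancomycin at both times (0.05 and 0.15). Csf1r was higher at ZT2 (0.43) and lower at ZT14 (−0.20). The macrophage sum therefore understates how far most of its markers were lower. The part of endothelial cells and macrophages in the Cd36 difference was not tested.

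The heart-type fatty acid binding protein Fabp3 (−0.22 and −0.12), the pantetheinase Vnn1 (0.07 and −0.32) and the lipid droplet coat protein Plin2 (0.26 and −0.12) differed by less than 2 scanner errors at both times.

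Markers of tissue next to the kidney varied between the arrays. The summed signal of 15 adipocyte markers was 56465 with vancomycin and 78423 with saline at ZT2, and 33184 with vancomycin and 53451 with saline at ZT14, with 15, 14, 10 and 10 of them well above background in that order. Most of each sum was lipoprotein lipase (Lpl), which is not confined to fat cells. Lpl had 43672 with vancomycin and 51598 with saline at ZT2, and 26195 with vancomycin and 47410 with saline at ZT14. The sum therefore understates how far other markers differed at ZT2. At ZT14 its lower value with vancomycin came from Lpl, and of the 9 markers measured on all arrays 4 were higher with vancomycin. Cfd, an adipocyte protease named after its values were seen, had 2991 with vancomycin and 9084 with saline at ZT2, and 91.7 with vancomycin and 94.9 with saline at ZT14. Adipoq, made by fat cells, had 247 with vancomycin and 769 with saline at ZT2 and was not well above background on either array at ZT14. Ucp1, of brown fat, had 204.9 with vancomycin at ZT2 and was not well above background on the other 3 arrays. Acsl1, Angptl4, Cd36, Pdk4 and Plin2 are also expressed in fat.

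Among 13 adrenal markers, 11 passed background on some array, and Cyp11b2 and Mc2r on none. Their summed signal was 4581 with vancomycin and 595 with saline at ZT2, and 844 with vancomycin and 454 with saline at ZT14, so the array with the high Acsl1 signal was also the array with the high adrenal signal. Of 10 heart and muscle markers, 8 passed background on some array (Tnnt2 and Ckm on none), with a summed signal of 325 with vancomycin and 1035 with saline at ZT2, and 504 with vancomycin and 610.0 with saline at ZT14. The part of fat, adrenal and muscle RNA in the members' differences was not tested.

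Related genes outside the list give the surroundings, to be read beside 29.9% of all genes higher and 27.3% lower at both times. Of 32 genes of ketone body synthesis and other PPAR-alpha responses, 29 were measured on all arrays, 12 with higher and 5 with lower signals at both times, and medians of 0.10 and 0.05. Retsat, which saturates retinol, was higher (0.84 and 0.69), and Lpin1, a phosphatidate phosphatase (−0.68 and −0.44), and Cidec, a lipid droplet protein that is also among the adipocyte markers (−1.74 and −0.56), were lower.

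Of 30 genes of the PPAR family and its coregulators, 12 had higher and 3 had lower signals at both times after vancomycin, with medians of 0.09 and 0.09. Ppard, the receptor paralog of Ppara, had 4284 with vancomycin and 2101 with saline at ZT2 (1.03), and 1009 with vancomycin and 841 with saline at ZT14 (0.26). Of 8 genes of carnitine supply, 7 were measured on all arrays, 5 higher and 1 lower, with medians of 0.20 and 0.17, among them the aldehyde dehydrogenase Aldh9a1 of carnitine synthesis (0.57 and 0.37), the serine hydroxymethyltransferase Shmt1 (0.21 and 0.22) and the carnitine transporter Slc22a5 (0.40 and 0.12). Of 19 genes of fatty acid synthesis, 10 were higher and 5 lower, with medians of 0.00 and 0.12, of which the synthase Fasn (−0.34 and −0.35) and the carboxylase Acaca (−0.25 and −0.24) were lower and the elongase Elovl6 (0.83 and 0.30) and the desaturase Scd2 (0.35 and 0.22) higher at both times.

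Between the injection times, ZT14 was higher than ZT2 in both treatments for 21 of the 36 members and lower in both for 9, where 39.4% and 35.3% of all genes were. Injection time and slide are the same split, so these differences cannot be told apart from a slide effect. No gene passed an adjusted p of 0.05 in limma's fit (0% called, lowest adjusted p 0.0865), but 1624 to 3394 genes did under 4 other settings. Among those genes were 2 to 8 members, with Hadha and Plin2 each time. Unadjusted, 6708 genes had a p under 0.05, 4424 higher and 2284 lower at ZT14. These included 6 members higher at ZT14 (Acot3, Angptl4, Cyp4a14, Decr2, Fabp3 and Plin2) and 2 lower (Cd36 and Hadha). As 8 of 37 members, they were a smaller share than the 6708 of 24640 genes. For Fabp3 a second probe gave smaller differences, 0.29 with vancomycin and 0.11 with saline, against 0.67 and 0.56.

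Plin2, which coats lipid droplets, differed most between times. It had 3825 at ZT14 and 1549 at ZT2 with vancomycin, and 4143 at ZT14 and 1293 at ZT2 with saline. Both ZT14 arrays were above both ZT2 arrays, by 2.47-fold with vancomycin and 3.20-fold with saline, the only member at least 2-fold higher in both treatments among the 36 (4.82% of all genes). Limma's time effect was 1.49 ± 0.17 (adjusted p 0.0891). The dimmer Plin2 probe gave differences of 1.26 with vancomycin and 0.89 with saline.

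At least 1.5-fold higher at ZT14 in both treatments were 4 members, Acot3, Angptl4, Decr2 and Plin2, with 10.6% of all genes, and 1 member, Hadha, was at least 1.5-fold lower, with 4.27% of all genes. None was 2-fold lower in both treatments, where 0.906% of all genes were. The time difference of Acot3 rests on the probe, as its dimmer probe gave 0.21 with vancomycin and 0.04 with saline. Decr2 had 56238 at ZT14 and 31702 at ZT2 with vancomycin, and 59613 at ZT14 and 34138 at ZT2 with saline. Hadha had 1149 at ZT14 and 2403 at ZT2 with vancomycin, and 1107 at ZT14 and 2017 at ZT2 with saline. Decr2 and Hadha were both named after their values were seen, and in each the treatments differed by less than 2 scanner errors at both times. Angptl4 differed by 1.18 with vancomycin and 0.79 with saline, and Cyp4a14 by 1.20 with vancomycin and 1.13 as measured with saline, where its ZT2 array was not well above background.

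**Figure D5:**
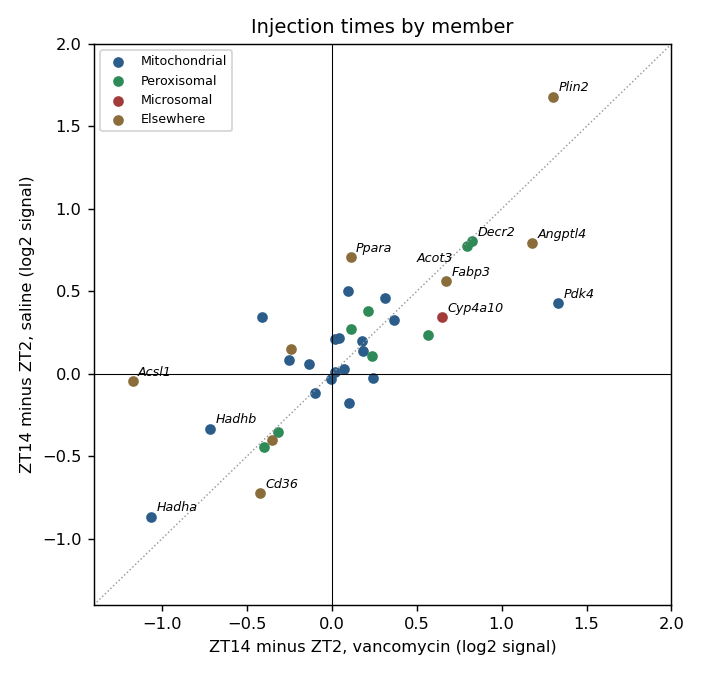
Each point is 1 of the 36 members, placed by its log2 difference between ZT14 and ZT2 with vancomycin (horizontal) and with saline (vertical), coloured by location, with equality on the dotted diagonal. Plin2, Angptl4, Decr2 and Acot3 lie far up and right, Hadha far down and left, and Pdk4 and Acsl1 lie off the diagonal.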

How the data were processed

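Total RNA of mouse kidney was labelled with Cy3 by the submitters and read on 4 one-colour Agilent arrays, per the labels. The deposited intensity values are scanner output that Agilent Feature Extraction made, version 10.7.1.1 per the file headers and 9.5.1.1 per the submitters' processing notes, with background subtracted and no scaling between arrays. A second deposited table of intensity values, with equal quartiles in all 4 columns, served as an alternative.

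Spots flagged as outliers and control spots were left out and spots of a probe averaged. Processed signals were taken as log2 and centred on each array's 75th percentile. Probes entered with 50% or more of their spots flagged well above background in 1 or more arrays, and a gene was read from its brightest probe. Of 57 member probes, 53 carried an accession that RefSeq lists under the same symbol, 4 had no match and none named another gene. Of 15 members with several probes above background on all arrays, probes differed in sign in 4 at ZT2 and 5 at ZT14. Differences were computed per injection time without a test. Treatment and injection time were tested in 1 additive fit (limma 3.58.1 in R 4.3.3, eBayes, 1 residual degree of freedom, Benjamini-Hochberg over all genes), which was tested on simulated data. The number of arrays limits the precision. Probe sequences and mm9 coordinates come from the scanner files, upstream sequences from RefSeq (GRCm38.p6).

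Members with at least 1.5-fold the same way at both times, or 2-fold at 1 time or between the times in both treatments, and Ppara, were given with all 4 signals, up to 3 others were named per location, and up to 4 genes of each related list were named by the size of the smaller of their differences at the 2 times, with some others. The members, lists and rules were chosen with earlier results of these data known. Alternatives in scaling, background correction, filter, probe choice, pseudocount and model are given at the end. Results for 2 genes of the related lists are not reported here.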

Additional observations from a re-analysis of the deposited data

How the results depend on the processing

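The count of genes called for vancomycin was 0 under all 10 alternatives (lowest adjusted p 0.0508 with an intensity trend and robust prior in limma's fit and 0.0747 with normexp background correction, where 2453 genes had an unadjusted p under 0.05). Members higher at both times numbered 24 to 26 and lower at both 4 to 5. The members' median stayed between 0.20 and 0.27 at ZT2 and between 0.14 and 0.19 at ZT14, the mitochondrial median between 0.18 and 0.25 and between 0.16 and 0.18, and the peroxisomal median between 0.14 and 0.24 and between 0.28 and 0.33. The microsomal median, 1.06 at ZT2 and 1.25 at ZT14, was 0.61 and 0.88 with normexp and 0.72 and 1.01 with a pseudocount of 16, and 0.80 at ZT2 with the dim probe at its bound; an added offset shrinks the difference of a dim probe such as that of Cyp4a14. The count of genes called for injection time was 0 as reported. It was 3002 with normexp, 1677 with the pseudocount and 3394 with the trend and robust prior, each of 24640 genes. With probes restricted to those above background everywhere it was 1624 of 20772. Members called there numbered 6, 3 and 8 of 37 and, with the restricted probes, 2 of 36. Hadha and Plin2 were in each, and the cause was not tested. No summary or call reversed its direction. Of the members' single differences recomputed under the alternatives, 287 at ZT2 and 288 at ZT14 stayed within 1 residual SD of limma's fit for that gene, and 8 and 7 moved by more. Without a filter on dim probes the median of all genes moved to 0.11 at ZT2 and 0.09 at ZT14. Leaving out an array leaves a group empty, so that was not run. The fit reported pairs vancomycin with saline within each injection time, and without that term 0 genes were called and 890 had an unadjusted p under 0.05, against 2107 with it. No other pairing was possible because each group has 1 array and no replicate numbers. Dim members, Cyp4a14 and Fgf21, are limited by their signal over background.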
